A study of Mus musculus with 4 samples.

Results

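The ISG15 conjugation system was followed through RNA of mouse lung endothelial cells (ECs) before and after deletion of ADAR1. Its members were fixed by name and role, as the modifier Isg15, the activating enzyme (E1) Uba7, the conjugating enzyme (E2) Ube2l6, the ligase (E3) Herc6 and the protease Usp18, which makes 5 of the 24421 genes in the count table. The table of candidate editing sites named 636 of its 1205261 sites for these 5 genes.

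The cells came from lungs of 2 male C57/BL6 mice of 2 weeks, from independent litters. Both carried a floxed Adar gene and an inducible Cre recombinase (i-KO), which the labels call EC-specific, and the cells of each mouse were divided into a non-induced dish (CON) and a dish given tamoxifen (TM), the drug that activates Cre. This gave 4 libraries with n = 2 per group, named EC1 CON and EC1 TM for 1 mouse and EC2 CON and EC2 TM for the other. Where 4 values follow each other below with no names, they keep this order. All groups carried the same alleles, and neither a vehicle control nor a tamoxifen-treated control without floxed Adar was among the groups, so tamoxifen, Cre activity and loss of ADAR1 cannot be told apart. The cells were selected on beads for CD31 and ICAM-2 and grown in culture before induction. In bulk RNA of this kind, fewer cells of a type and less RNA per cell cannot be told apart either.

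ISG15 is a small ubiquitin-like protein that cells join to other proteins, much as they join ubiquitin. UBA7 activates it, UBE2L6 carries it, and in the mouse HERC6 is the main ligase that transfers it to targets, while USP18 removes it again. The genes are known interferon-stimulated genes (ISGs), and USP18 also acts on the type I interferon (IFN) receptor, where it dampens signalling. IFN-stimulated genes commonly carry an IFN-stimulated response element (ISRE) near their start.

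Promoter sequence is shown because the genes whose promoter could be read did not all carry the letters that this element uses. RefSeq promoters (GRCm38.p6, 250 bases before to 50 bases after the start) were held for Isg15, Uba7, Ube2l6 and Herc6, and Usp18 had no entry. Both strands were searched for the ISRE core GAAANNGAAA and for the shorter IRF-binding letters AANNGAAA, which lie inside it. In the lines below, written 5′ to 3′ along the strand of the gene, capitals mark the ISRE core in Isg15 and the shorter match in Uba7, which is on the opposite strand.
Isg15, chr4:156200871-156200900, minus strand: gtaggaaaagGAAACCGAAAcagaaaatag
Uba7, chr9:107975530-107975557, plus strand: ctcagtctagTTTCACTTttggtttcct
The Isg15 promoter held 3 overlapping matches to the core, starting at bases -78, -72 and -66 from the start of the gene, of which the middle one is shown. Of 32851 promoters of the same length, 3.44% held the core. No match to the core was found in the Uba7, Ube2l6 or Herc6 windows. The shorter letters occurred 4 times in Isg15, 1 time in Uba7 at base -27 from the RefSeq start, and not in Ube2l6 or Herc6, against 23.9% of all promoters. The RefSeq start of Uba7 lies 33 bases downstream of that of the GENCODE transcript used below, so that the match is inside exon 1 of the latter, whereas the starts are the same for Isg15 and Ube2l6 and 8 bases apart for Herc6. These are descriptions of letters in a window, and nothing about binding was measured.

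For each gene 2 measures were taken. The first was the number of read pairs that HTSeq gave to each gene, and 0.823% to 0.858% of the summed counts of each table fell on genes (1095488 to 1778732 counts per library). The second was the read depth at exonic bases that the editing table lists, taken per gene as the median over listed exon and UTR sites and scaled to 100M (1e+08) of the summed counts of the library, summary rows included. A base is listed for a library only where that library had an altered read there, so the medians of different libraries rest on different bases. The measures differed in size for the members. Read pairs implied by the median depth, the spliced length and the length of both reads were far above the counts, and the counts came to 0.105% to 7.52% of them. Over 6514 genes of the depth fit the median of this share was 0.352% to 0.506% per library. HTSeq was run at its defaults on libraries from a kit that marks strand, and no source states which strand the deposited counts hold. Chrnb2, a subunit of a neuronal acetylcholine receptor that lies opposite the last exon of Adar, had counts of 70, 447, 76 and 563, above those of Adar in every library. The counts may therefore include reads from the strand opposite a gene, and below they are given as the counts assigned to a gene, which cannot be equated with its RNA level. The depth measure does not use strand, except that altered reads were called along the gene's strand.

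The deletion was checked on Adar itself. Exons 12 to 14 of Adar, which lie in the floxed part, had 3 and 0 listed sites in the CON and TM libraries of EC1 and 1 and 2 in those of EC2, and their median depth was 145, 169 and 65.5 reads in the libraries with a site, EC1 CON, EC2 CON and EC2 TM. In EC2, where both libraries could be read, this came to 118 per 100M in CON and 31.6 in TM. Over the whole gene, the median exonic depth of Adar, itself an ISG, was 109, 485, 121 and 453 per 100M (log2 fold change 2.03, SE 0.27, limma adjusted p = 2.83e-06). Exons 12 to 14 were thus near the whole-gene depth in EC2 CON (118 against 121) and far below it in EC2 TM (31.6 against 453). The counts of Adar were 9, 47, 16 and 71 (log2 fold change 1.87, SE 0.45, edgeR adjusted p = 0.00609). Its last exon is overlapped on the opposite strand by exons of Chrnb2, over 1365 bases.

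All 10 endothelial markers had listed exonic sites in every library, with summed depths of 16323 and 20681 per 100M in CON and 12779 and 13927 in TM. Summed depth stayed at or under 41.7 for the 10 leukocyte markers and at or under 54.6 for the 8 epithelial markers. The 10 fibroblast and smooth muscle markers came to 598 and 940 in CON and to 204 and 322 in TM. The depth of both lists was lower in the TM library of each mouse. By counts the summed CPM of the fibroblast and smooth muscle list was 585 and 521 in CON and 588 and 487 in TM, and that of the endothelial list was 1131 and 920 in CON and 895 and 1009 in TM. The part of these lists in the results below was not tested.

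Depth at exonic bases of 4 members rose in TM by 6.67-fold to 39.5-fold, and for the other one, Herc6, it was 40.0 times as high in the mouse in which both libraries could be read. By gene counts Isg15 and Ube2l6 rose, and Uba7, Herc6 and Usp18 did not pass the test. Across all genes tested, limma called 6.39% of 6836 higher by depth and edgeR called 4.39% of 7899 higher by counts. Both TM libraries lay above both CON libraries for all 5 members by depth, with 1 CON library unread for Herc6, and for 3 of 5 by counts, whereas this held for 27.2% of all genes by depth and 25.3% by counts. Depth was at least 4-fold higher in TM in both mice for the 4 members tested, against 1.38% of genes. Their CON medians rest on few listed sites. In EC1 CON and EC2 CON these were 3 and 5 for Isg15, 6 and 6 for Uba7, 4 and 4 for Ube2l6, and 3 and 4 for Usp18. The TM libraries listed 25 to 53 sites for each of these members.

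**Figure D1:**
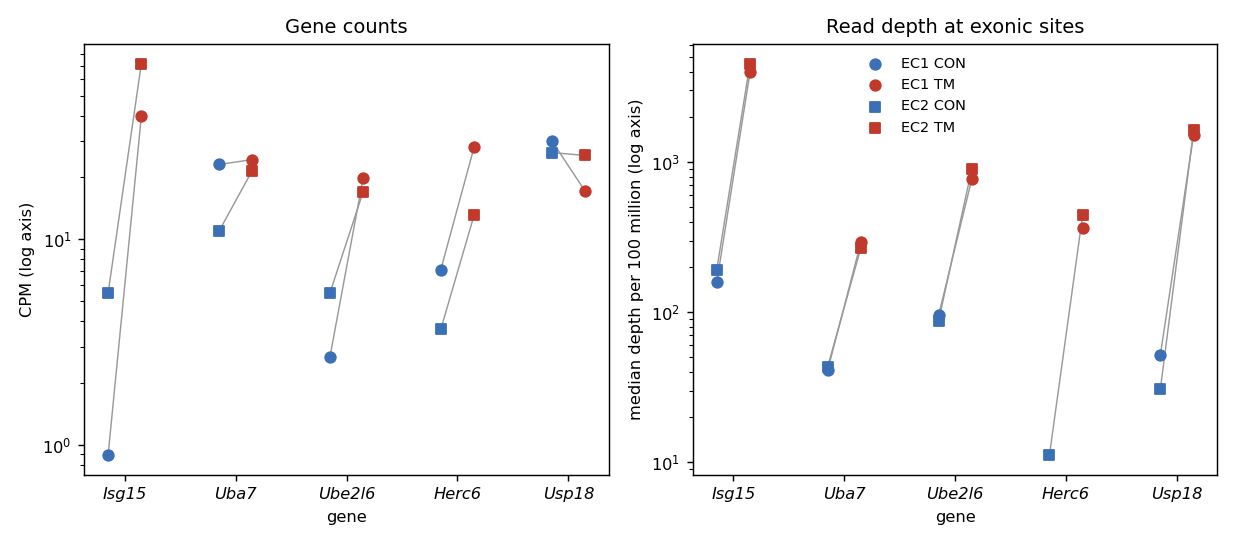
Gene counts as TMM-scaled CPM (left) and median exonic depth per 100M (right) of each member in the 4 libraries, both on log axes. Blue is CON, red is TM, circles are EC1 and squares EC2, grey lines join the libraries of a mouse, and Herc6 has no point for EC1 CON by depth. By depth every TM point lies above the CON points of its gene. By counts the points of Uba7 overlap, and the TM points of Usp18 lie below its CON points, in EC2 only slightly.

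Isg15 (ENSMUSG00000035692.6, chromosome 4, 156199424 to 156200818, minus strand, 2 exons) encodes the modifier. Its median exonic depth in reads was 210 without and 5215.5 with TM in EC1, and 275 without and 9390 with TM in EC2, which is 158, 3957, 192 and 4529 per 100M. The TM values were 25.1 and 23.6 times the CON values, so that the ratio was nearly the same in both mice. The rise was 4.61 on the log2 scale (SE 0.29, limma adjusted p = 6.33e-13). Among genes with at least 3 listed sites, Isg15 depth exceeded that of 67.9% and 68.3% of genes in CON and of 99.4% and 99.5% in TM, where it stood at rank 53 of 8458 and rank 51 of 9662. Counts were 1, 44, 6 and 126, and the TM libraries did not overlap with CON (log2 fold change 4.12, SE 0.57, edgeR adjusted p = 6.1e-06). The count of 1 in EC1 CON lies under the 3 counts that a count of 0 still allows, so the ratio of counts in EC1 is poorly set. Isg15 is the member in which both measures gave the same call under every alternative run that could test it.

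Uba7 (ENSMUSG00000032596.14, chromosome 9, 107975505 to 107984060, plus strand, 24 exons) encodes the E1 that is dedicated to ISG15. Its depth was 41.0 and 43.2 per 100M in CON and 292 and 269 in TM. The replicates lay close together, with a mean of 42.1 ± 1.59 in CON and 281 ± 16.2 in TM (SD, n = 2 each). The rise of 2.74 on the log2 scale (SE 0.28, limma adjusted p = 1.35e-08) was the lowest of the 4 tested by depth, and the ratios were 7.13 in EC1 and 6.23 in EC2. Counts behaved otherwise. They were 26 and 27 in the CON and TM libraries of EC1, and 12 and 38 in those of EC2. As CPM they were 23.1 and 24.4 in EC1 and 10.9 and 21.6 in EC2, and on this scale the groups overlapped. The log2 fold change was 0.42 (SE 0.47, edgeR adjusted p = 0.688), and without EC2 CON it was -0.01. Exons of Gm20661 lie on the same strand over those of Uba7.

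Ube2l6 (ENSMUSG00000027078.14, chromosome 2, 84798828 to 84810335, plus strand, 4 exons) encodes the E2. Its depth per 100M was 95.1 without and 770 with TM in EC1, and 87.1 without and 899 with TM in EC2. Both TM libraries stood 8.10 and 10.3 times above CON (log2 fold change 3.19, SE 0.27, limma adjusted p = 4.27e-10). Each CON median rests on 4 listed sites, the lowest with 6 reads in EC1 and 2 in EC2. Counts were 3, 22, 6 and 30, with no overlap between groups (log2 fold change 2.15, SE 0.63, edgeR adjusted p = 0.0296). The call by counts was lost with DESeq2 (adjusted p = 0.312) and without any 1 of the 4 libraries (adjusted p of 0.0548 to 0.244). Over all genes DESeq2 called 2.26% higher.

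Herc6 (ENSMUSG00000029798.11, chromosome 6, 57581000 to 57664632, plus strand, 23 exons) encodes the ligase. It had the lowest exonic depth of the members in CON, with no listed site in EC1 CON and 2 sites of 11 and 21 reads in EC2 CON, and it was therefore outside the limma fit. In TM it had 33 listed sites with a median of 478 reads in EC1 and 47 sites with a median of 925 reads in EC2, which is 363 and 446 per 100M. In EC2 the ratio was 40.0, and 2 mice alone cannot give an exact sign permutation p under 0.5. Counts were 8, 31, 4 and 23, and the groups did not overlap. The log2 fold change of counts was 1.87 (SE 0.61, edgeR adjusted p = 0.0556). With the mouse as replicate block, the adjusted p was 0.0176, where edgeR called 7.6% of genes higher; without a filter on low counts, where 2.24% were called higher, it was 0.043, and without EC2 TM it was 0.0218. With DESeq2 and in the other alternatives the call was not made, so the count result for Herc6 depended on the fit. Exons of Gm45193 lie over its own on the same strand.

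Usp18 (ENSMUSG00000030107.10, chromosome 6, 121245906 to 121270917, plus strand, 11 exons) encodes the protease that takes ISG15 off its targets. Its median exonic depth in reads was 69 without and 2009 with TM in EC1, and 44 without and 3366 with TM in EC2. Per 100M these were 51.8, 1524, 30.7 and 1624, so the TM libraries were close to each other and the CON libraries less so. The rise of 5.30 on the log2 scale (SE 0.29, limma adjusted p = 3.64e-14) was the largest of the 4 tested, at 29.4 times in EC1 and 53.0 times in EC2. Usp18 depth exceeded that of 29.2% and 14.3% of genes in CON and of 97.3% and 97.4% in TM. Counts did not follow this. In raw counts the TM library held fewer than the CON library in EC1 (19 against 34) and more in EC2 (45 against 29). Scaled to library size as CPM, TM was lower in EC1 (17.2 against 30.2) and nearly equal to CON in EC2 (25.6 against 26.45). The log2 fold change was -0.38 (SE 0.42, edgeR adjusted p = 0.685), with a value below 0 in every alternative run. Gm44148, a gene on the opposite strand, has an exon over 124 bases of Usp18 exons. At sites outside its exons the Usp18 depth was 45.5, 1547, 31.4 and 1629 per 100M, nearly the values given above. The CON values rest on 2 such sites in EC1, under the 3 that the fit asked for, and on 3 in EC2.

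The order of the members in TM was the same in both mice. Isg15 had the greatest depth, followed by Usp18, Ube2l6, Herc6 and Uba7, and no pair of neighbours overlapped between the mice. In CON, Isg15 was also first and Ube2l6 second, while Usp18 (30.7 and 51.8 per 100M) and Uba7 (41.0 and 43.2) overlapped. Relative to Isg15 in the same library, Usp18 depth was 32.9% and 16% in CON and 38.5% and 35.8% in TM. Ube2l6 depth was 60.2% and 45.5% of that of Isg15 in CON and 19.5% and 19.8% in TM, and Uba7 depth was 26% and 22.5% in CON and 7.38% and 5.94% in TM. In both mice the protease stood higher relative to the modifier in TM than in CON, whereas the E1 and the E2 stood lower. The ligase Herc6 was at 5.82% of Isg15 in EC2 CON and at 9.16% and 9.85% in TM, with no value in EC1 CON. Whether the fold changes of the members differ was not tested.

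Depth was read along each spliced transcript. In TM, listed sites fell on 10 of 11 exons of Usp18 in each mouse, on 14 of 24 exons of Uba7, on 15 and 16 of 23 exons of Herc6, and on 4 and 3 of 4 exons of Ube2l6. Across Usp18 the depth stayed between 1033 and 2427 per 100M in EC1 TM, which listed no site in the first exon. In EC2 TM a single site in the first exon was at 234, and the other sites lay between 995 and 2637. Isg15 was at 579 to 8911 per 100M in EC1 TM and at 675 to 8573 in EC2 TM, with the lowest values towards the last base of the transcript. In Herc6 the greatest median was in exon 6 in EC1 TM (560) and in exon 5 in EC2 TM (736), and the last exon was at 250 and 170.

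**Figure D2:**
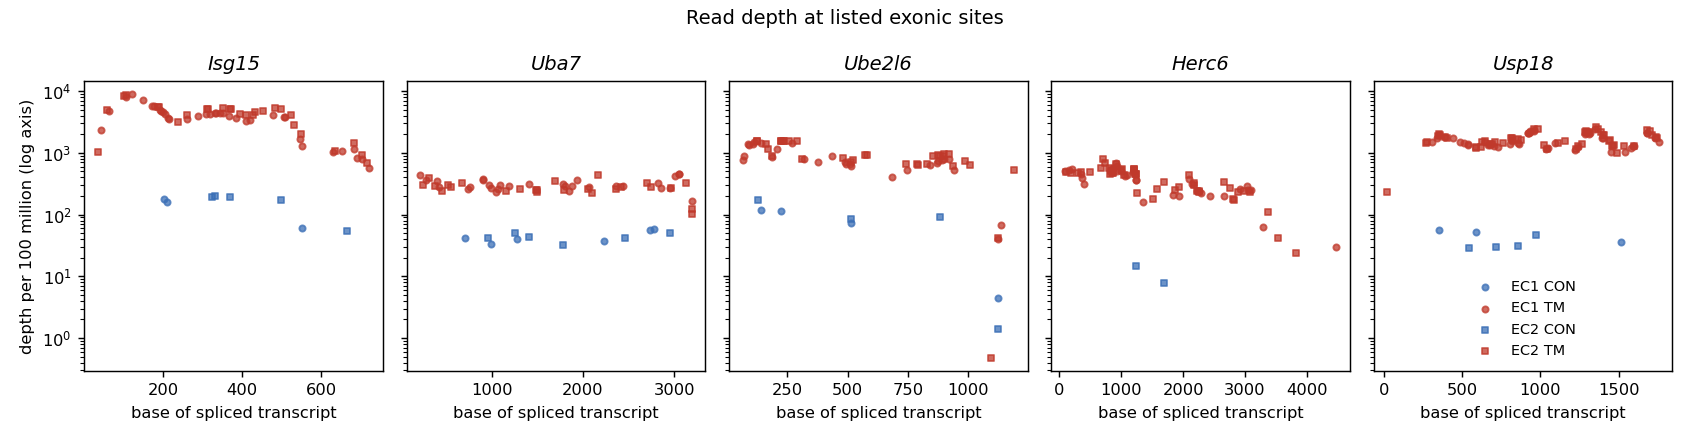
Depth per 100M (log axis) at each listed exonic site against its place in the spliced transcript, from the first base on, for the 5 members. Blue is CON, red is TM, circles are EC1 and squares EC2. In Usp18 the CON points lie between 28.6 and 55.6 and the TM points of EC1 between 1033 and 2427, and in Ube2l6 a few sites late in the transcript are far lower than the rest in both groups.

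The few bases listed in both libraries of a mouse gave ratios at the same base. All of them were deeper in TM: 1 base of Isg15 in EC1 (21.1 times) and 2 in EC2 (27.1 and 29.6 times), 1 of Uba7 in EC1 (8.12 times), 3 and 2 of Ube2l6 (8.33 to 11.9 times and 8.51 to 29.8 times), 1 of Herc6 in EC2 (31.2 times), and 1 of Usp18 in each mouse (35.4 and 54.0 times). The ratios at shared bases were thus close to those of the medians, apart from the higher of the EC2 values of Ube2l6. That value rests on 2 reads in EC2 CON, at base 1124 of the transcript. Bases 516 and 1124 were the shared bases of Ube2l6 in EC2 and were also shared in EC1. Every read at these bases was altered in all 4 libraries. Intronic sites were listed as well. Their median depth in Usp18 was 3.01 and 2.44 per 100M in CON and 47.0 and 33.5 in TM, and in Ube2l6 it was 1.50 and 1.39 in CON and 9.86 and 9.16 in TM. Intronic depth was therefore higher in TM in both mice for these genes, at a small part of the exonic depth.

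Genes of the other ubiquitin-like systems were read next. For comparison, limma called 6.39% of all genes tested higher by depth, and edgeR called 4.39% higher by counts. Of the 18 modifiers other than ISG15, 10 were in the edgeR fit and 16 in the limma fit. Sumo2, a ubiquitin-like modifier of nuclear proteins, was lower by counts, at 90 and 83 in CON and 31 and 65 in TM (a log2 fold change of -1.24, SE 0.35, edgeR adjusted p = 0.022), and 3.35% of all genes were called lower by counts. Its exonic depth was 573 and 1006 per 100M in CON and 549 and 681 in TM, and it was not called by limma (log2 fold change -0.31, adjusted p = 0.595). No other modifier was called by either tool, and 4 of 10 by counts and 3 of 16 by depth had an unadjusted p under 0.05, against 1621 of 7899 and 1682 of 6836 in the whole fits. For the modifiers the median log2 fold change was 0.23 by counts and -0.30 by depth, against 0.00 and 0.01 over all genes tested.

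The 9 activating enzymes of the other systems included 1 call, by depth, where limma called 6.39% of all genes higher. Uba6, an alternative E1 for ubiquitin, was at 19.5 and 35.9 per 100M in CON and 64.5 and 72.4 in TM (a log2 fold change of 1.37, SE 0.33, limma adjusted p = 0.00573), and it was too low for the edgeR fit. Of the 28 other conjugating enzymes, Ube2a, which acts with ubiquitin in DNA repair, was lower by depth, at 323 and 298 in CON and 98.3 and 231 in TM (a log2 fold change of -1.04, SE 0.32, limma adjusted p = 0.0285), where limma called 5.44% of genes lower. Its counts were 10, 11, 13 and 25, with a log2 fold change of 0.24. By counts no gene of the E1 list (6 tested) or E2 list (18 tested) was called by edgeR, and none of these had an unadjusted p under 0.05. The median log2 fold change by depth was 0.09 for the 7 E1 genes and 0.04 for the 21 E2 genes tested.

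No other HERC ligase was called, with 2 of 4 tested by edgeR and 3 by limma, of which 1 and 0 had an unadjusted p under 0.05. Among the 35 other ubiquitin-specific proteases, 0 of 27 were called by edgeR (3 with an unadjusted p under 0.05). By depth 3 of 26 rose, against 6.39% of all genes. Usp25 was at 150 and 187 per 100M in CON and 416 and 405 in TM (a log2 fold change of 1.30, SE 0.28, limma adjusted p = 0.0014). Usp36, a nucleolar protease, had a log2 fold change of 0.86 (SE 0.29, limma adjusted p = 0.0469) and Usp54 one of 1.15 (SE 0.33, limma adjusted p = 0.0213). The median of the 26 proteases by depth was 0.28, against 5.30 for Usp18. DESeq2 called 1 gene over all of these lists together, the IFN signalling list included.

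Of 8 other proteins reported to attach or remove ISG15, 0 of 6 were called by edgeR (2 with an unadjusted p under 0.05). By limma 1 of 5 was called, against 6.39% of all genes called higher. This was Trim25, a ligase known for its part in RIG-I signalling, which was at 154 and 204 per 100M in CON and 528 and 451 in TM (a log2 fold change of 1.46, SE 0.28, limma adjusted p = 0.000437). Its counts were 14, 43, 17 and 58, and the groups did not overlap (log2 fold change 1.35, edgeR adjusted p = 0.0513).

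In the list of genes from the type I IFN receptor to its transcription factors, Stat2 and Irf9, which act in the nucleus on ISGs, rose by both measures. Of all genes tested, edgeR called 4.39% higher by counts and limma 6.39% by depth. Stat2 was at 73.6 and 81.5 per 100M in CON and 712 and 693 in TM (a log2 fold change of 3.18, SE 0.27, limma adjusted p = 4.08e-10). Irf9 was at 78.1 and 120 in CON and 286 and 347 in TM (a log2 fold change of 1.70, SE 0.29, limma adjusted p = 8.43e-05). By counts Stat2 (9, 98, 9 and 164) and Irf9 (1, 22, 2 and 28) had log2 fold changes of 3.47 and 3.62 and edgeR adjusted p of 6.66e-07 and 0.00199. Both CON counts of Irf9 lie under the 3 counts that a count of 0 still allows, so its fold change by counts is poorly set. For both genes the TM libraries lay above the CON libraries without overlap, which held for 25.3% of all genes by counts and 27.2% by depth. Over the whole list of 7 genes, all in both fits, the median was 0.62 by counts and 0.59 by depth on the log2 scale. Over all genes tested it was 0.00 and 0.01.

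**Figure D3:**
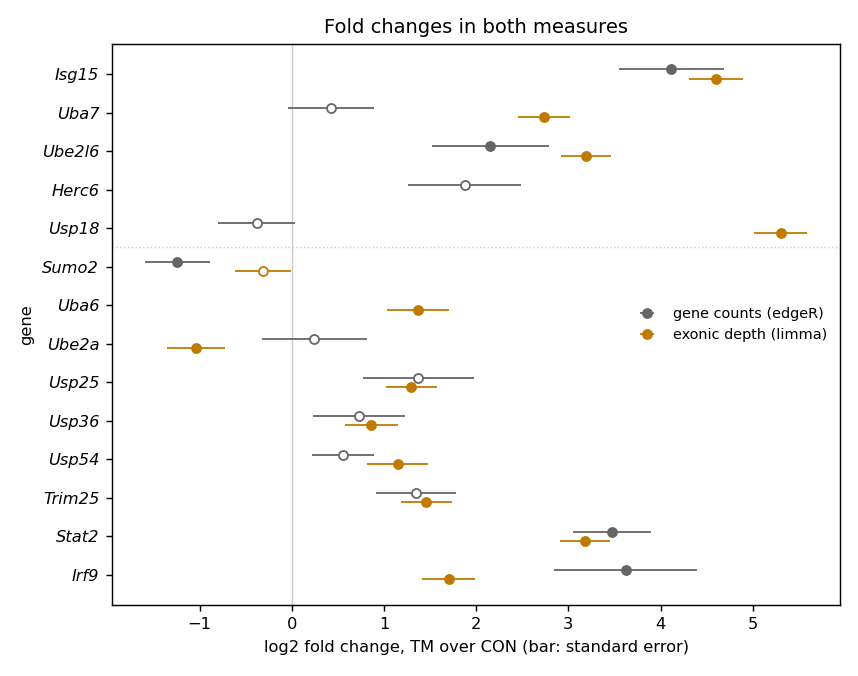
Log2 fold change of TM over CON by gene counts (grey) and by exonic depth (orange), with bars for the standard error, for the 5 members (above the dotted line) and for genes of the other lists called by either measure. Filled points passed an adjusted p of 0.05. Usp18 stands at -0.38 by counts and at 5.30 by depth, whereas Stat2 stands at 3.47 and 3.18.

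The genes closest to each member by the pattern of their counts were found by the distance between centred log2 CPM over the 4 libraries, among 7898 other genes. Nearest to Isg15 were Hspb8, a small heat shock protein, and Ifit1, an ISG that binds foreign RNA. Ifit1 depth was 41.3 and 40.4 per 100M in CON and 1325 and 1397 in TM (a log2 fold change of 5.06, SE 0.27, limma adjusted p = 2.92e-14). Hspb8 depth was 109 and 142 in CON and 119 and 225 in TM (a log2 fold change of 0.40, limma adjusted p = 0.465), against counts of 6, 153, 16 and 280, so the likeness of Hspb8 to Isg15 held for counts and not for depth. Ube2l6 was nearest to Adar and Top3a, Herc6 to Qtrt1 and Atrip, Uba7 to Dnm1l and Abhd17b, and Usp18 to Utrn and Gnpnat1. The depth of Utrn was 357 and 394 in CON and 268 and 269 in TM, and that of Dnm1l was 135 and 189 in CON and 163 and 179 in TM. Neither was called by limma (adjusted p of 0.294 and 0.881), although Usp18 and Uba7 were.

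Editing was then read at the members' own sites. ADAR1 turns adenosine into inosine, which sequencing reads as guanosine, and the editing rate is the share of altered reads at a site. EC1 CON listed 43 of the members' sites, EC1 TM 303, EC2 CON 49 and EC2 TM 356. Sites passed where at least 5 reads covered them, at least 3 were altered and the rate lay between 0.05 and 0.95. In CON 0 of the members' sites passed in either mouse, whereas 5 passed in EC1 TM and 19 in EC2 TM. Of all sites listed, 3.15% and 2.61% passed in the CON and TM libraries of EC1, and 3% and 2.84% in those of EC2. None of the 352 exonic sites and none of the 37 sites in SINEs, short interspersed repeats, passed in any library. Among the exonic sites, bases 516 and 1124 of the Ube2l6 transcript had every read altered in all 4 libraries, above the limit of 0.95. Most exonic listings rested on 1 altered read, 137 of 173 in EC1 TM and 143 of 185 in EC2 TM, at bases covered by up to 17773 reads.

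With the same limits on reads and altered reads in the library with the higher rate, 0 member sites had a rate at least 0.05 higher in CON than in TM, and 2 sites in EC1 and 16 in EC2 had one at least 0.05 higher in TM. Without these limits the rate was higher in CON at 8 member sites of EC1 and 9 of EC2, out of 24 that both libraries of the mouse listed. The rest were not all higher in TM, since bases 516 and 1124 of the Ube2l6 transcript had equal rates in every library. A listed site has at least 1 altered read, so at low depth its rate cannot be near 0. Over all sites listed in EC1, 1.05% were higher in CON and 0.69% in TM, and over those in EC2 0.888% and 0.795%. A library that does not list a site has a deposited rate of 0, whatever its coverage there. The coverage of the members was higher in TM, as given above, and its part in these counts was not tested. Fisher's exact test (two-sided, BH-adjusted over 11912 and 12864 sites) was run on sites that passed in at least 1 library of a mouse and were listed in both, which left 3 member sites per mouse, with 1 to 4 reads in CON. All 6 had an adjusted p of 1. The same test called 83 sites higher in CON and 6 higher in TM in EC1 over the whole table, and 230 and 6 in EC2. When every site listed in both libraries was tested, whether or not it passed, a setting added after seeing the data, 0 of 24 member sites per mouse were called (smallest adjusted p of 1 in EC1 and 0.728 in EC2; 0 and 3 with an unadjusted p under 0.05). Among these, 6 per mouse were exonic, with 6 to 159 reads in EC1 CON and 2 to 275 in EC2 CON.

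The passing sites lay in Herc6 and Usp18. In Herc6 there were 17, each in a LINE, a long interspersed repeat, within its introns. An L1VL4 element (chromosome 6, 57621381 to 57622195) held 13 sites that passed in EC2 TM, with 77 altered reads of 559 over its 28 listed sites, and 1 that passed in EC1 TM, with 10 of 91 over 8. The highest rate was at base 57622135, where 15 of 21 reads were altered in EC2 TM (71.4%, 95% Wilson interval 50% to 86.2%), 3 of 6 in EC1 TM and 2 of 3 in EC1 CON. At base 57623409, in an Lx element, 10 of 40 reads were altered in EC1 TM (25%, 14.2% to 40.2%) and 8 of 30 in EC2 TM (26.7%, 14.2% to 44.4%). In Usp18, 23 of 45 reads were altered in EC2 TM at base 121245549 of the promoter (51.1%, 37% to 65%), against 1 of 2 in EC2 CON, and a pair of adjacent intronic bases, 121269150 and 121269151, had 3 of 23 in EC1 TM and 3 of 28 in EC2 TM. Neighbouring sites can share reads, and the intervals cover counting error alone.

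**Figure D4:**
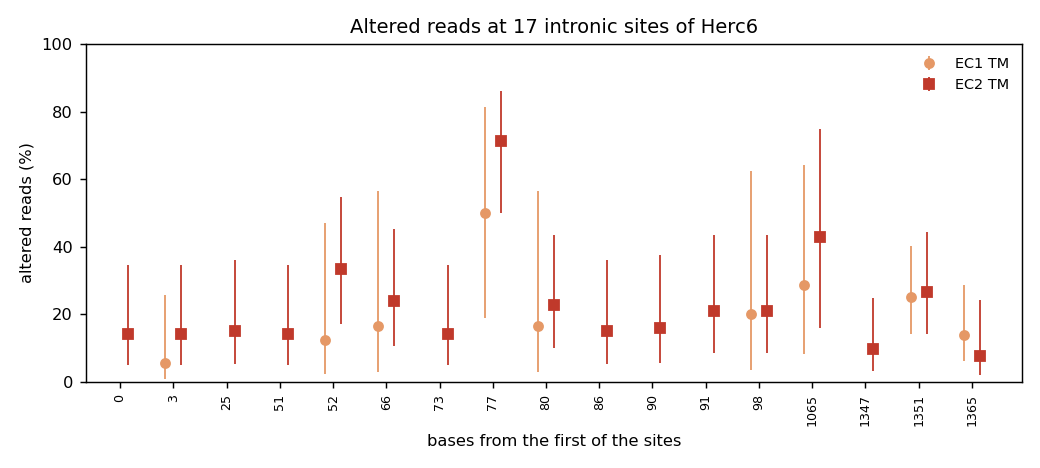
Altered reads in percent at the 17 intronic Herc6 sites that passed in TM, in order along the gene, with the distance from the first site in bases, for EC1 TM (light circles) and EC2 TM (dark squares), where listed. Bars are 95% Wilson intervals, and the site with 71.4% in EC2 TM is at 50% in EC1 TM with 6 reads.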

How the data were processed

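RNA of mouse lung ECs was sequenced in 4 libraries, CON and TM from each of 2 mice. Per the labels' processing notes and the study's methods, the authors used Trimmomatic (0.38) for trimming, STAR (2.6.1a) for alignment to mm10 and HTSeq (0.11.2) at its defaults for counting, and the deposited gene counts are raw. The libraries were made with a kit that marks strand. The 5 summary rows of each count file (with reads on no gene at 92.8% to 93.9% of the summed counts) were left out of library sizes. A count of 0 allows 1.69 to 2.74 CPM (3 counts). The authors also called variants per library, kept A-to-G changes along the gene's strand, and deposited counts of reads and of altered reads and the editing rate as a fraction. Its columns were given to libraries through a site table that accompanies the study.

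Gene counts were tested with edgeR (4.0.16) quasi-likelihood, TMM and filterByExpr, with condition as the only term. Exonic depth (median over listed sites, at least 3 per gene in every library, per 100M of the summed counts) was tested as log2 values with limma (3.58.1) and no pseudocount, with 26.6 prior and 2 residual degrees of freedom, so its p-values rest mostly on a spread pooled over genes. An adjusted p (BH over all genes of a fit) of 0.05 was the threshold. Editing was tested with Fisher's exact test on reads. Gene positions came from GENCODE vM21. Same-numbered libraries come from the same mouse per the labels (r = 0.163 between deviations of paired libraries over 7899 genes). On simulated data with 200 genes changed 4-fold, edgeR recovered 162 with 7 false calls among 7899 genes and limma 200 with 14 among 6836.

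The genes named are the 5 members, Adar, up to 3 genes per list and direction with the smallest adjusted p, the 2 genes nearest each member by counts, and genes with exons over a member's on the opposite strand. Genes on the same strand, the list genes called by depth and the sites that passed were named after their values were seen. The members and lists were chosen with earlier results of these data known. Depth of list genes, ratios at shared bases, intronic depth, Fisher's test on every site listed in both libraries, the check against Chrnb2 and Usp18 outside Gm44148 were added after seeing the data. A listed item is not reported here.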

Additional observations from a re-analysis of the deposited data

How the results depend on the processing

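Of the members, Isg15 was called higher under every alternative run that could test it, by counts (log2 fold change 3.33 to 5.84) and by depth (4.47 to 4.75). By depth Uba7, Ube2l6 and Usp18 were also called in each alternative that could be fitted, the replicate block included (highest adjusted p 0.000505); with at least 10 listed sites, or with sites listed in all 4 libraries, no member could be tested. At the sites of Usp18 outside Gm44148, chosen after seeing the data, the log2 fold change was 5.39, with 2 such sites in EC1 CON and 3 in EC2 CON. By counts the call of Ube2l6 was lost with DESeq2 (2.18) and with any 1 library left out (1.72 to 2.74), while DESeq2 with the block gave it no adjusted p. Herc6 passed without a filter (1.90), with the replicate block in edgeR (1.90) and without EC2 TM, over a range of 1.27 to 2.41 with 1 library left out. Uba7 turned to -0.015 without EC2 CON (-0.015 to 1.04 over the libraries left out). The cause was not tested.

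Genes called by counts numbered 612 by edgeR, 362 by DESeq2, 1184 with the replicate block in edgeR and 401 with the block in DESeq2, and 436 to 574 with 1 library left out. Genes of the other lists called numbered 3, against 1 with DESeq2, 9 with the replicate block in edgeR, 2 to 5 with 1 library left out and 9 by depth. By depth 809 genes were called, 539 with at least 10 sites, 140 at sites listed in all 4 libraries, 1354 with the median ratio set to 0, 1326 with the replicate block in limma, and 371 to 912 with 1 library left out, where the lowest were without EC1 TM (371) and without EC2 TM (391). The block changed no call of a member other than Herc6 by edgeR. Member sites higher in TM numbered 2 in EC1 and 16 in EC2, with 4 in EC2 at 5 or more altered reads and 0 in each mouse by Fisher's exact test, also when every site listed in both libraries was tested (chosen after seeing the data). The samples were 2 mice, sites outside exons had few reads in CON, and the depth of bases that a library does not list is not known.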
